A study of Homo sapiens with 6 samples.

Results

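The genes described here are the HIF prolyl hydroxylases EGLN1, EGLN2 and EGLN3, the asparaginyl hydroxylase HIF1AN, the ubiquitin ligase component VHL and the coactivator competitor CITED2. They were taken by symbol from a table of 21776 genes, in which all 6 were listed. Of these, 5 were among the 14255 genes that passed the filter on low counts, and EGLN2 was not. The libraries were made from RNA of SCC25, an established human oral squamous cell carcinoma line with the genotype label WT, grown in DMEM/F12 with fetal bovine serum and antibiotics. The name SCC25 is that of the sample labels, whereas a legend in the study names SCC9 for a pathway analysis under hypoxia, and the identity of the line was not tested. In the hypoxia group, 3 libraries came from cells kept for 12 h in 1% O2 and 5% CO2 with nitrogen as the balance. In the normoxia group, 3 libraries came from cells kept for 12 h in 5% CO2 and 95% air. All libraries were from this single line, and nothing in the labels stated whether the replicates were separate cultures, so p-values measured only the spread between these libraries, which may be technical. The total count was 30186813, 36076088 and 32272716 in hypoxia replicates 1, 2 and 3, and 37278703, 29637189 and 29981208 in normoxia replicates 1, 2 and 3.

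HIF transcription factors pair an oxygen-regulated alpha subunit (HIF1A or EPAS1) with ARNT. When oxygen is available, the EGLN enzymes hydroxylate prolines of the alpha subunit, VHL binds the hydroxylated protein and presents it for ubiquitination, and HIF1AN hydroxylates an asparagine that otherwise contacts the coactivators EP300 and CREBBP. CITED2 occupies the same coactivator surface, and EGLN3, EGLN1 and CITED2 are textbook HIF target genes, so that the system contains negative feedback.

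Under hypoxia, 4 of the 6 genes were higher, none was lower, VHL did not pass the test and EGLN2 was too low to test. EGLN3 rose 103-fold, CITED2 3.09-fold, EGLN1 2.80-fold and HIF1AN 1.22-fold. The test was edgeR's quasi-likelihood test on counts over all genes, with Benjamini-Hochberg adjusted p under 0.05 as the threshold. The response of these cells was broad: 39.2% of all tested genes were higher, 38.5% were lower and 77.8% changed in either direction at the same threshold. In 4 of the 6 genes every hypoxia library lay above every normoxia library, against 40.6% of all tested genes. The median log2-fold change of the 5 tested members was 1.49, beside 0.023 over all tested genes. In bulk RNA, a change in the number of cells that express a gene and a change in the RNA per cell cannot be told apart.

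**Figure D1:**
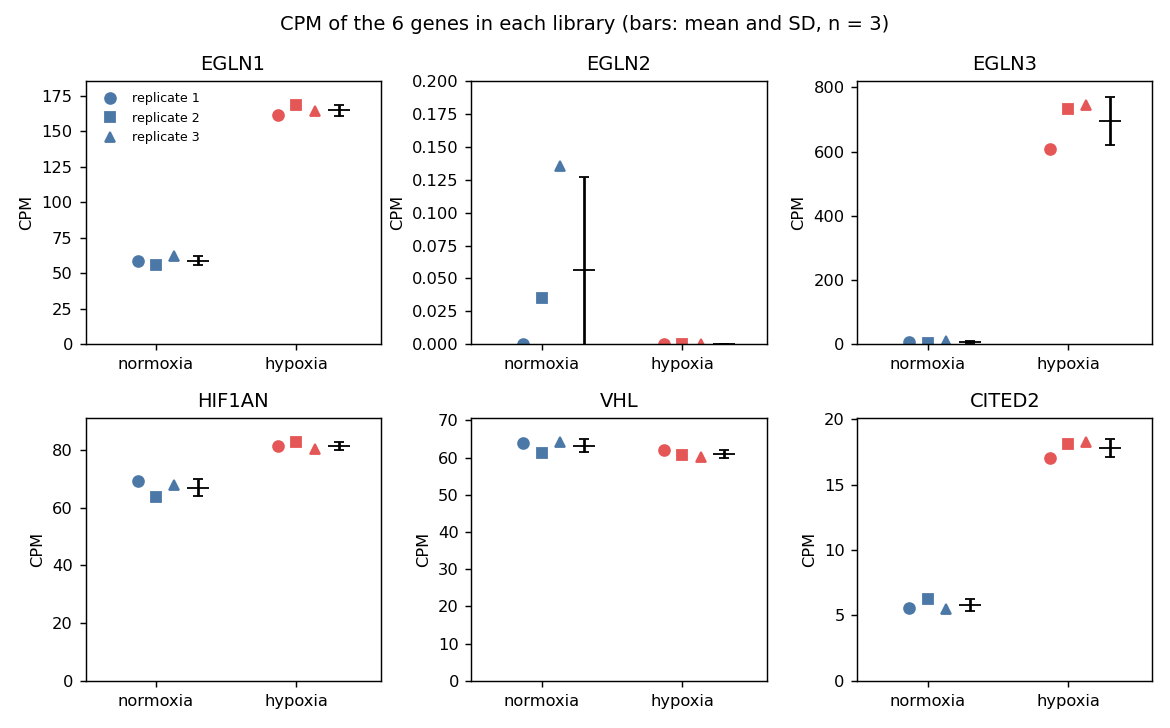
CPM (counts relative to the TMM-scaled library total, linear axis from 0) of the 6 genes in the 3 normoxia libraries (blue) and the 3 hypoxia libraries (red), with 1 symbol per replicate and the mean and SD beside them; each panel has its own axis. EGLN3 went from at most 10.7 to at least 609 CPM, EGLN1 and CITED2 formed separate groups, the HIF1AN groups were close but separate, the VHL groups overlapped, and EGLN2 stayed at or below 0.14 CPM.

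The sequences just before the annotated starts of EGLN1, CITED2 and EGLN3 are shown because these were the 3 members with the largest increases. They are the 250 bases before the start in RefSeq (GRCh38.p14), on the minus strand of chr1:231422288-231422537 for EGLN1, chr6:139374649-139374898 for the upstream start of CITED2 and chr14:33951075-33951324 for EGLN3. Capitals mark the letters ACGTG or GCGTG, the core of the hypoxia response element, searched on both strands, so also as CACGT or CACGC.
EGLN1: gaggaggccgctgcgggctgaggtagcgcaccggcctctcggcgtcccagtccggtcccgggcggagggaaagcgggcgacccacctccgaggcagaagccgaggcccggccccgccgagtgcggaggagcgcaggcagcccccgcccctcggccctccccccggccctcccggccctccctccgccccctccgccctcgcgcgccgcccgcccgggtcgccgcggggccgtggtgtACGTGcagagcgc
CITED2: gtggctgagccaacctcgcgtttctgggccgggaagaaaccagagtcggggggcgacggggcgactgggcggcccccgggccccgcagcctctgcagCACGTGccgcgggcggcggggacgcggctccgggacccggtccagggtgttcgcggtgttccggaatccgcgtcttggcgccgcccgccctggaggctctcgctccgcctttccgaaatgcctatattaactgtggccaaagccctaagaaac
EGLN3: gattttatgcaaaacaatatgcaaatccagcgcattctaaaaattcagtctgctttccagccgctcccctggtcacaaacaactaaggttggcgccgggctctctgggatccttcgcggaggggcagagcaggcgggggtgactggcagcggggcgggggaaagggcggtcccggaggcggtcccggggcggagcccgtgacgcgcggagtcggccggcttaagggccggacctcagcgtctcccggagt
The EGLN1 window held ACGTG, starting 13 bases before the start. The CITED2 window held CACGTG starting 153 bases before the start, in which CACGT and ACGTG overlap, and the windows of the other CITED2 starts held CACGC and GCGTG. The EGLN3 and HIF1AN windows held none of these letters. Of the 2 windows of EGLN2, which had no counts under hypoxia, the upstream one held CACGTG starting 49 bases before the start and the other held no match. In all, 5 of the 8 windows of the members (62.5%) held a match. Of 35116 such windows of all genes, 43.2% held ACGTG or GCGTG on either strand and 18.5% held ACGTG. A match is a description of the letters, not of a bound site, and 5 of the 6 members had a window to search.

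EGLN1 (also called PHD2) is the main HIF prolyl hydroxylase in most cell types with oxygen available. Its counts were 4923, 6266 and 5331 in hypoxia replicates 1, 2 and 3 and 2191, 1588 and 1833 in normoxia replicates 1, 2 and 3. Scaled to library size, EGLN1 was at 165 ± 3.63 CPM under hypoxia and 58.8 ± 3.23 CPM under normoxia (SD, n = 3). All hypoxia libraries were higher than all normoxia libraries, and within each condition the coefficient of variation of CPM was at most 5.50%. The log2-fold change was 1.49 (SE 0.057, 95% interval 1.37 to 1.61, adjusted p = 3.41e-13), at percentile 86.8 of the log2-fold changes of all tested genes. SLC2A1, the glucose transporter GLUT1, was among the 3 genes whose profile over the 6 libraries was nearest to that of EGLN1, with a root mean square distance of 0.035 in centred log2 CPM. The other 2 were DENND11 (0.026) and HID1 (0.032).

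EGLN3 (PHD3) is the member of the family known for strong induction by hypoxia. Its counts were 18603, 27222 and 24182 in hypoxia replicates 1, 2 and 3 and 218, 107 and 317 in normoxia replicates 1, 2 and 3. The mean level was 695 ± 75.0 CPM under hypoxia and 6.77 ± 3.58 CPM under normoxia (SD, n = 3). The groups were far apart: the lowest hypoxia library was at 609 CPM and the highest normoxia library at 10.7 CPM. The log2-fold change was 6.69 (SE 0.20, 95% interval 6.27 to 7.11, adjusted p = 2.55e-14), position 16 from the top among 14255 tested genes. The genes with the nearest profiles were PADI3, ADSS1 and MB, with log2-fold changes of 6.23, 5.58 and 6.33. MB encodes myoglobin, which binds oxygen. These neighbours were less close than those of EGLN1, with root mean square distances of 0.43 to 0.60.

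**Figure D2:**
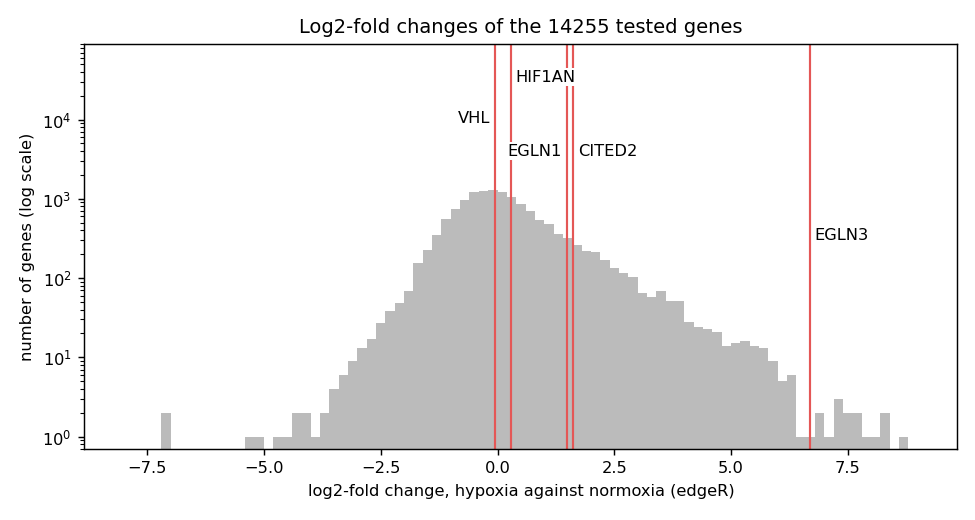
Histogram of the log2-fold changes (hypoxia against normoxia, edgeR) of the 14255 tested genes, with the number of genes on a log axis and red lines at the 5 tested members. VHL (-0.051) and HIF1AN (0.28) lie in the body of the distribution, EGLN1 (1.49) and CITED2 (1.63) in its right shoulder, and EGLN3 (6.69) near the right end.

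The low EGLN3 level under normoxia was also its most variable one. The highest normoxia library, replicate 3, exceeded the lowest, replicate 2, by 2.87-fold, whereas the hypoxia libraries differed by at most 1.22-fold. Of 14 other well-known hypoxia response genes, 12 were highest in normoxia replicate 3 among the normoxia libraries, 2 in replicate 2 and none in replicate 1. Over all tested genes 37.2% were highest in normoxia replicate 3, and over the 5595 genes higher under hypoxia 58.6% were. CA9, a carbonic anhydrase, and NDRG1, a stress-response gene, showed the widest gaps among these 14. All 14, which were listed as known hypoxia response genes, were higher under hypoxia, beside 39.2% of all tested genes. Their median log2-fold change was 2.68. Without normoxia replicate 3 the log2-fold change of EGLN3 was 7.13 and without normoxia replicate 2 it was 6.41. What lay behind the values of replicate 3 was not tested.

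**Figure D3:**
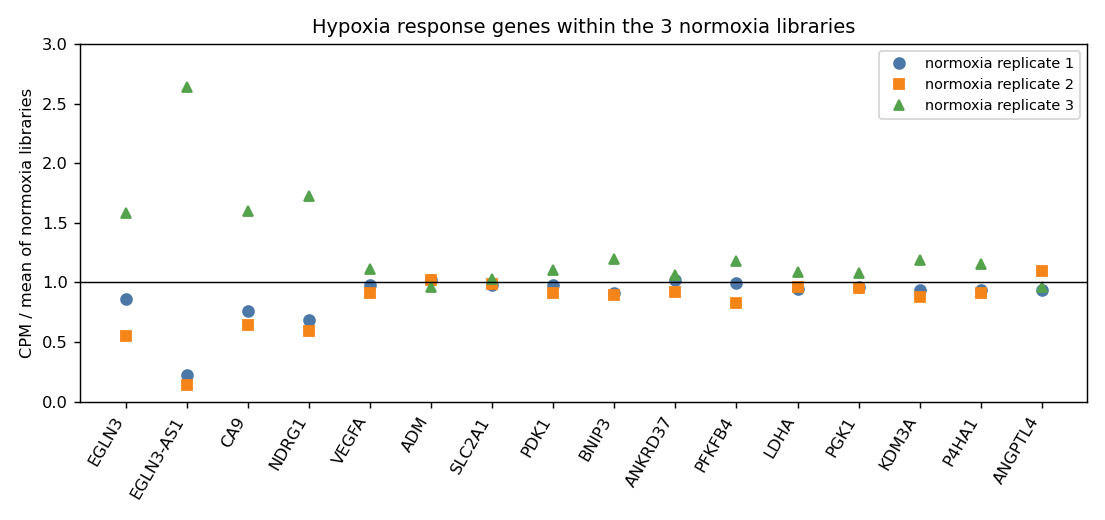
CPM of EGLN3, EGLN3-AS1 and 14 hypoxia response genes in each normoxia library, divided by the mean of the 3 normoxia libraries (linear axis, line at 1). Replicate 3 (triangles) is the highest for EGLN3, for EGLN3-AS1 (which rests on 2, 1 and 19 counts) and for 12 of the 14 response genes.

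EGLN2 (PHD1) was nearly absent from the table. It had 0 counts in every hypoxia library and 0, 1 and 4 counts in normoxia replicates 1, 2 and 3. A count of 0 allows up to 3 counts, between 0.081 and 0.10 CPM in these libraries, for counting error only. No fold change is given. RefSeq lists a read-through gene, RAB4B-EGLN2, whose span covers 100% of that of EGLN2, and in GENCODE 29 the exons of EGLN2 share 30.6% of their bases with other genes on the same strand. Among protein-coding genes of the table that are likewise covered for at least 90% of their span by a read-through gene named for them, 24.4% of 238 had fewer than 10 counts in every library, compared with 15.7% of the 15224 genes not named in a read-through gene. By shared exon bases on the same strand, 14.5% of the 846 genes that share 10 to 50%, as EGLN2 does, had fewer than 10 counts in every library, compared with 15.4% of the 14172 genes that share under 10%. Whether reads of EGLN2 were lost to shared exons was not tested, and RAB4B and RAB4B-EGLN2 were not analysed here.

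The balance between the EGLN1 and EGLN3 transcripts was inverted between the conditions. On the per-length scale (FPKM, fragments scaled to gene length and library total), EGLN1 was at 13.4, 12.2 and 14.0 in normoxia replicates 1, 2 and 3 and at 37.2, 39.6 and 37.7 in hypoxia replicates 1, 2 and 3. EGLN3 was at 2.16, 1.33 and 3.91 FPKM under normoxia and at 228, 279 and 277 FPKM under hypoxia. EGLN1 was thus the higher of the pair in all 3 normoxia libraries and EGLN3 in all 3 hypoxia libraries. EGLN1 made up 84.7 ± 6.23% of the summed EGLN FPKM under normoxia and 12.8 ± 1.08% under hypoxia, and EGLN3 15.2 ± 6.09% and 87.2 ± 1.08% (SD, n = 3). The groups did not overlap for either gene, with an exact two-sided permutation p of 0.1, which is the smallest that 3 against 3 libraries can give. The summed EGLN FPKM was 299 ± 29.8 under hypoxia and 15.7 ± 2.17 under normoxia, a 19.1-fold difference, of which EGLN3 gained 259 FPKM and EGLN1 25.0 FPKM. Because of the near-zero counts of EGLN2 given above, these shares and the sum describe EGLN1 and EGLN3 and carry no weight for EGLN2. They are not the make-up of the whole family.

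HIF1AN (factor inhibiting HIF) rose only slightly. Its counts were 2486, 3082 and 2601 in hypoxia replicates 1, 2 and 3 and 2577, 1823 and 2005 in normoxia replicates 1, 2 and 3. At library scale this was 81.5 ± 1.35 CPM against 66.9 ± 2.87 CPM (SD, n = 3). The lowest hypoxia library (80.2 CPM) lay above the highest normoxia library (69.2 CPM), so the groups did not overlap. The log2-fold change was 0.28 (SE 0.055, 95% interval 0.17 to 0.40, adjusted p = 0.000169), at percentile 61.0 of all tested genes. Its nearest profiles were those of MEF2D, GATAD2B and DIP2A, with root mean square distances of 0.013 to 0.020. In GENCODE 29, 2.33% of its exon bases are shared with NDUFB8 and AL133352.1 on the opposite strand, and no source used here says whether the counting used strand.

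VHL, the substrate receptor of the ligase that recognises hydroxylated HIF, did not pass the test. Its counts were 1896, 2260 and 1952 in hypoxia replicates 1, 2 and 3 and 2384, 1751 and 1902 in normoxia replicates 1, 2 and 3. The mean was 61.0 ± 0.99 CPM under hypoxia and 63.2 ± 1.73 CPM under normoxia (SD, n = 3), and the 2 sets of libraries overlapped. The log2-fold change was -0.051 (SE 0.056, 95% interval -0.17 to 0.066, adjusted p = 0.408). The interval corresponds to a hypoxia level between 0.89 and 1.05 times the normoxia level, so that a change as large as that of HIF1AN lay outside it. With genes required to have at least 10 counts in every library the estimate was 0.026 (adjusted p = 0.664), under a filter that moved the median of all genes by 0.077, and in the other refits it stayed below 0. KLHL7, MINPP1 and MPRIP had the nearest profiles.

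CITED2, which competes with HIF1A for EP300 and CREBBP, rose about as much as EGLN1. Its counts were 519, 673 and 593 in hypoxia replicates 1, 2 and 3 and 206, 180 and 162 in normoxia replicates 1, 2 and 3. The mean was 17.8 ± 0.69 CPM under hypoxia and 5.77 ± 0.45 CPM under normoxia (SD, n = 3). Every hypoxia library was above every normoxia library. The log2-fold change was 1.63 (SE 0.11, 95% interval 1.40 to 1.86, adjusted p = 3.36e-10), at percentile 88.3 of all tested genes. The FPKM ratio of EGLN1 to CITED2 was 5.97 under normoxia and 5.42 under hypoxia, with overlapping libraries (change of -0.14 on the log2 scale, exact permutation p = 0.4). BCORL1, a corepressor, LIMCH1 and TMPRSS13 had the nearest profiles, with root mean square distances of 0.031 to 0.068.

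Ranked by FPKM, the members stood in a different order in each condition. Under normoxia VHL (13.3 FPKM) and EGLN1 (13.2 FPKM) led and overlapped, HIF1AN followed at 5.06 FPKM, EGLN3 (2.47 FPKM) and CITED2 (2.21 FPKM) overlapped, and EGLN2 was last. Under hypoxia the order was EGLN3 (261 FPKM), EGLN1 (38.2 FPKM), VHL (13.3 FPKM), CITED2 (7.05 FPKM), HIF1AN (6.36 FPKM) and EGLN2, and no neighbours in it overlapped. Ratios between members within a library, which do not depend on scaling between libraries, could be formed for 10 of the 15 pairs, those without EGLN2. In 9 of the 10 pairs the hypoxia and normoxia libraries did not overlap (exact two-sided permutation p = 0.1, adjusted over the 10 pairs 0.111). These pairs share 5 genes, and 77.6% of all pairs of tested genes with counts in every library likewise did not overlap. The FPKM ratio of EGLN1 to VHL went from 0.991 to 2.88, that of EGLN3 to HIF1AN from 0.443 to 40.9 and that of HIF1AN to VHL from 0.380 to 0.480.

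Of 6 partners of the VHL ligase, 5 were lower and none was higher under hypoxia, beside 38.5% of all tested genes lower, and their median log2-fold change was -0.52. ELOC (elongin C), which bridges VHL to the cullin, was at 72.6, 65.1 and 71.9 CPM in hypoxia replicates 1, 2 and 3 and at 121, 134 and 120 CPM in normoxia replicates 1, 2 and 3. Its log2-fold change was -0.84 (adjusted p = 1.11e-09). UBE2M, the conjugating enzyme that loads NEDD8 onto cullins, fell furthest of the 6 (-1.12), followed after ELOC by the scaffold CUL2 (-0.64), the modifier NEDD8 (-0.40) and the RING subunit RBX1 (-0.20). ELOB (elongin B) was at 0.097 and did not pass (adjusted p = 0.113). With at least 10 counts in every library RBX1 lost its call (adjusted p = 0.0621) and ELOB gained it as higher (adjusted p = 0.00656).

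Among 11 genes that act on the turnover or scaffolding of the hydroxylases and VHL, 6 were higher, 2 were lower, 2 did not pass the test and WTIP was too low to test. The 8 called of 10 tested stand beside 77.8% of all tested genes called in either direction, and the median log2-fold change of the 10 was 0.23. WSB1, a ubiquitin ligase subunit reported to act on VHL, was at 269, 300.3 and 278 CPM in hypoxia replicates 1, 2 and 3 and at 65.9, 61.2 and 80.0 CPM in normoxia replicates 1, 2 and 3, with no overlap. Its log2-fold change was 2.03 (SE 0.080). LIMD1, a scaffold that holds a prolyl hydroxylase together with VHL, rose by 1.36 on the log2 scale, whereas its relative AJUBA (-0.070) did not pass the test. FKBP8, an anchor of EGLN1, rose by 0.83 and OS9, which binds hydroxylases and HIF1A, by 0.67. SIAH2, a ubiquitin ligase for EGLN3, rose by only 0.22, and its paralogue SIAH1 (-0.077) did not pass. Without normoxia replicate 1 SIAH2 no longer passed (log2-fold change 0.19, adjusted p = 0.0509). The deubiquitinases USP33 and USP20, known as binding partners of VHL, were at 0.24 and -0.21, and PTGES3, the HSP90 cochaperone p23, fell by 0.70. USP20 did not pass under the stricter count filter (adjusted p = 0.109) or in limma on log2(FPKM + 1) (adjusted p = 0.0587).

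**Figure D4:**
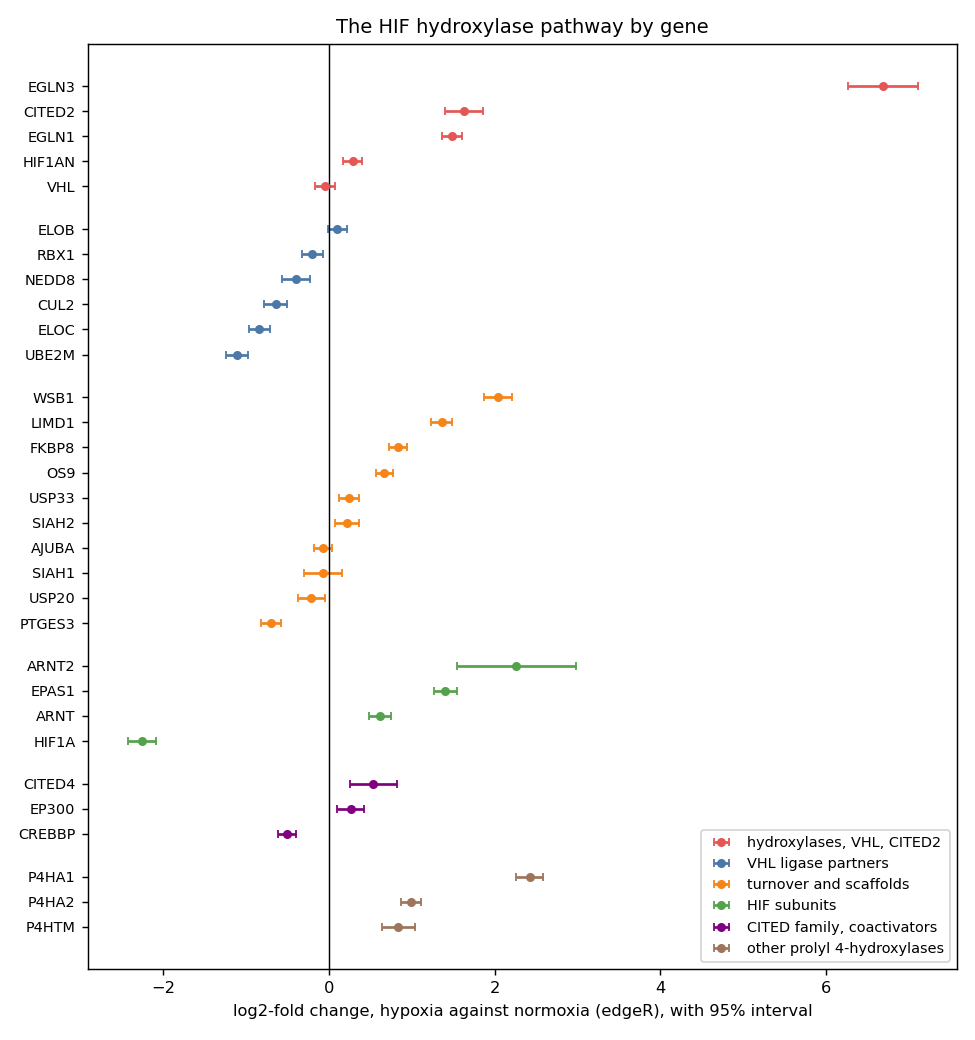
Log2-fold change (hypoxia against normoxia, edgeR; horizontal axis) with its 95% interval for each tested gene of the pathway, coloured by list, with a line at 0. EGLN3 (6.69) stands apart from all the others, 5 of the 6 partners of the VHL ligase lie below 0, and HIF1A (-2.26) is on the opposite side from EPAS1 (1.40).

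The HIF subunits, of which the alpha subunits are the targets of the hydroxylases, also diverged. HIF1A was at 19.0, 15.1 and 14.5 FPKM in hypoxia replicates 1, 2 and 3 and at 72.3, 75.1 and 77.9 FPKM in normoxia replicates 1, 2 and 3, a log2-fold change of -2.26 (adjusted p = 2.08e-13), while EPAS1 (HIF-2 alpha) rose by 1.40, ARNT by 0.61 and ARNT2 by 2.26. HIF3A had at most 1 count in a library. The FPKM of HIF1A divided by the summed EGLN FPKM was 4.84 ± 0.617 under normoxia and 0.0552 ± 0.0145 under hypoxia (SD, n = 3, exact two-sided permutation p = 0.1), a comparison of transcripts and not of proteins. The sum in this ratio is in effect that of EGLN1 and EGLN3. Among the relatives and partners of CITED2, CITED4 (0.53) and the coactivator EP300 (0.26) were higher, the coactivator CREBBP (-0.51) was lower, and CITED1 was too low to test. Of the other prolyl 4-hydroxylases, the collagen enzymes P4HA1 (2.42) and P4HA2 (0.98) and the membrane-bound P4HTM (0.84) were higher, and P4HA3 was too low to test. All these log2-fold changes are from the same edgeR fit.

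The epithelial label was checked against marker genes. Of 8 squamous epithelial markers, 7 were tested, and 3 were higher (CDH1, KRT17 and DSG3) and 3 lower (EPCAM, SFN and KRT5) under hypoxia, beside 39.2% and 38.5% of all tested genes. TP63 did not pass the test. The adhesion gene CDH1 was the most abundant of them under hypoxia (479 CPM, 188 CPM under normoxia) and the adhesion gene EPCAM under normoxia (317 CPM, 249 CPM under hypoxia). EPCAM (-0.35) and SFN (-0.80, from 209.6 to 120 CPM) fell on the log2 scale. KRT5 was at 111 CPM under hypoxia and 126 CPM under normoxia, but KRT14 had at most 1 count in any library. Of 6 fibroblast markers, 2 were tested and 1, COL1A1, was higher. Their summed level was 17.1 to 22.1 CPM under hypoxia and 3.15 to 5.64 CPM under normoxia, nearly all of it COL1A1 (18.0 and 3.76 CPM), while COL3A1 had at most 2 counts, DCN at most 4 counts and COL1A2 at most 9 counts in any library. LUM had 27, 9 and 8 counts in hypoxia replicates 1, 2 and 3 and 1, 1 and 2 counts in normoxia replicates 1, 2 and 3, too few to test but without overlap. PDGFRB, with 24, 19 and 20 counts under hypoxia and 13, 7 and 11 under normoxia, did not overlap either and did not pass (log2-fold change 0.96, adjusted p = 0.0507). The part of this difference in the results for the hydroxylases was not tested. Of the immune markers, 4 were listed and summed to 27.3 to 33.9 CPM under hypoxia and 32.2 to 34.2 CPM under normoxia, nearly all CD68, and PTPRC had at most 2 counts. The 4 endothelial markers, led by CDH5, summed to 1.26 to 1.67 CPM under hypoxia and 0.296 to 0.744 CPM under normoxia. These sums did not overlap, and 1 of the 4 markers was tested and higher.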

How the data were processed

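RNA of SCC25 cells was sequenced in 6 libraries, 3 per condition, and grouped by the sample labels. The count columns name the condition and replicate number but not the line (hnscc), and were matched to the samples by these. The authors deposited raw read counts per gene and, for the same genes, FPKM values. The FPKM of the 6 members follow from their counts, the library totals and a fixed gene length. The submitters' processing notes name only GRCm38 and mm10, which are mouse builds, although the samples and gene symbols are human. The aligner, counter and human build are not given in the sources used here.

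Counts were filtered (filterByExpr), scaled by TMM and tested for hypoxia against normoxia with edgeR 4.0.16 (quasi-likelihood test, R 4.3.3), with Benjamini-Hochberg adjustment over 14255 genes. The study does not name its method of differential expression. CPM were computed with TMM library sizes. The SE was derived as the absolute log2-fold change divided by the square root of the F statistic of the test. The 95% intervals were built symmetrically from this SE with the t distribution. Shares and ratios of FPKM were compared with exact permutation tests (scipy 1.17.1). Nearest profiles were sought among 11569 genes with a mean log2 CPM of at least 1. Alternatives used DESeq2 1.42.0 and limma 3.58.1, on log2(FPKM + 1) for genes with mean FPKM of at least 1, other filters and each library left out. The code was tested on simulated counts in which only a small part of the genes changed, equally up and down. That test did not check the scaling between libraries for a response as broad as the one here. Genes were named by a rule: all 6 members, the genes of the pathway lists and the 3 nearest profiles of each member. Marker and response lists are given by counts, with examples. EGLN3-AS1 was added after its values were seen. The members and lists were chosen with earlier results of these data known. The edgeR intervals rest on the spread between libraries, and the floors of 3 counts cover counting error only.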

Additional observations from a re-analysis of the deposited data

How the results depend on the processing

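The directions and calls of EGLN1, EGLN3, HIF1AN and CITED2 were the same under all 14 refitted alternatives. When single libraries were omitted, estimates on the log2 scale ranged from 1.44 to 1.51 for EGLN1, 6.41 to 7.13 for EGLN3, 0.24 to 0.30 for HIF1AN, 1.58 to 1.68 for CITED2 and -0.082 to -0.046 for VHL, and from -0.16 to 0.020 for SIAH1, which changed sign without normoxia replicate 1. VHL never passed, and its sign reversed (0.026) under the filter of 10 or more counts throughout, which moved the median of all genes by 0.077. Under the same filter SIAH1 (0.00031) and AJUBA (0.0070) also changed sign. None of these passed. Requiring a log2-fold change beyond 1 as well left 3 of the 4 higher members, without HIF1AN. The replicate numbers did not pair the libraries (correlations of deviations 0.018, -0.069 and 0.0012), and a fit with the replicate block gave 4 members higher, 0 lower and a log2-fold change of 6.72 for EGLN3. ELOB was higher in limma on log2(FPKM + 1) (0.14, adjusted p = 0.0244). ARNT2 was at 2.26 in the main fit and at 1.85 to 2.49 when single libraries were omitted. In limma on log2(FPKM + 1) without a filter it was at only 0.47 (adjusted p = 0.00363). Depth set the floor for EGLN2 at between 0.081 and 0.10 CPM.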

Other observations

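EGLN3-AS1, a non-coding gene named for EGLN3, was looked at after its values were seen. It had 428, 524 and 494 counts in hypoxia replicates 1, 2 and 3 and 2, 1 and 19 counts in normoxia replicates 1, 2 and 3. All hypoxia libraries were higher than all normoxia libraries, and normoxia replicate 3 was again the highest of its group. In RefSeq the spans of EGLN3 and EGLN3-AS1 do not overlap, and 1 gene, LOC105370446, lies between them.

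The deposited FPKM of EGLN3 appear a second time in the table, in the row of NMT1, an N-myristoyltransferase, with the same value in all 6 libraries. They follow from the counts of EGLN3 with a length of 2706 bases and not from those of NMT1. The NMT1 counts were 4307, 4845 and 4254 in hypoxia replicates 1, 2 and 3 and 7806, 6001 and 5775 in normoxia replicates 1, 2 and 3. Tested on these counts with edgeR's quasi-likelihood test, NMT1 was lower under hypoxia, with a log2-fold change of -0.61 (95% interval -0.73 to -0.50, adjusted p = 1.55e-08). The study reports NMT1 as higher under hypoxia in its transcriptome analysis, and also by qPCR and western blot in lines other than SCC25. Which values its transcriptome analysis used for NMT1 was not tested.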
